A study of Homo sapiens with 12 samples.

Results

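The 10 genes described here, SLC7A11, SLC3A2, GPX4, GCLC, GCLM, GSR, NQO1, HMOX1, TXNRD1 and FTH1, carry cystine into the cell, make and recycle glutathione, and protect lipids and iron stores from oxidation. They were chosen by name, as the rows of the count table whose Ensembl identifier maps to these symbols. No value entered this rule, but earlier results of these data were known when the genes were chosen. They are 10 of 58381 genes counted, and all 10 were among the 15836 genes abundant enough to be tested. RNA came from Hs578T and MDA-MB-231, both established human triple negative breast cancer cell lines. Every cell carried Cas9 under a doxycycline-inducible promoter, delivered by a lentivirus with puromycin resistance, and Cas9 was induced in CD44 WT and CD44 KO cells alike. CD44 KO cells received guides against exons 1 and 5 of CD44, the receptor for hyaluronan, and were sorted as live CD29+ CD44- cells. CD44 WT cells received the transfection reagent without guides and were sorted as live CD29+ CD44+ cells. The sorted cells were populations, not clones, and all were held in low serum before RNA was extracted. Each of the 4 groups had 3 libraries. Nothing in the labels says that the 3 came from separate cultures, so the p-values measure only the spread between these libraries, which may be technical.

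The transporter known as system xc- pairs SLC7A11, the light chain that moves cystine in and glutamate out, with SLC3A2, the heavy chain that holds it at the cell surface. Cystine is reduced to cysteine, the scarce building block of glutathione, and GPX4 spends glutathione to detoxify lipid peroxides. When this chain fails in the presence of iron, cells die by ferroptosis, and mesenchymal-like breast cancer cells are known to lean on it heavily. The transcription factor NRF2 switches on many of these genes through the antioxidant response element. Variant forms of CD44 are known to bind SLC7A11 protein at the membrane. The counts here are per gene, so they separate neither CD44 variants from the standard form nor transporter protein from its transcript.

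CD44 itself followed the labels. In Hs578T its mean was 507 ± 17.6 CPM in the CD44 WT libraries against 27.3 ± 2.06 CPM after CD44 KO, and in MDA-MB-231 362 ± 1.70 against 34.2 ± 5.40 CPM. CPM are counts scaled to a common library size with TMM factors, and here and below ± is the SD with n = 3. Library totals ran from 10257586 to 19725543 counts. Both lines carried the epithelial keratins KRT8 and KRT18, with group means from 307 to 631 CPM, and high VIM, a mesenchymal filament gene, with group means from 3862 to 6609 CPM. EPCAM, an epithelial adhesion gene, separated the lines, with group means of 0.0556 CPM or less in Hs578T and 17.6 and 16.8 CPM in MDA-MB-231. VIM passed as higher in CD44 KO of both lines, by 0.38 and 0.43 on the log2 scale. The epithelial cadherin CDH1 stayed at means of 0.658 CPM or less and the progesterone receptor PGR was at 0 in every library. The estrogen receptor ESR1 had means of 0.771 and 0.928 CPM in Hs578T and of 0.0286 and 0 CPM in MDA-MB-231. ERBB2, which encodes HER2, had group means from 61.9 to 94.5 CPM. Neither passed with CD44 KO in either line. In Hs578T, markers of other cell types also differed between the groups. The summed level of the 5 immune markers was 1.11 to 1.48 CPM in CD44 WT and 3.64 to 5.37 CPM in CD44 KO. Most of the rise was PTPRC, with means of 0.369 and 3.78 CPM. CD3E and CD14 had lower means in CD44 KO, at 0.520 and 0.323 CPM and at 0.347 and 0.112 CPM. CD68 had means of 0.0513 and 0.151 CPM, and the B cell marker MS4A1 was at 0. The sum of the 5 fibroblast markers overlapped, at 2739 to 4244 CPM against 3519 to 3801 CPM. Most of this sum was COL1A1, with means of 3417 and 3568 CPM, so it says little of the others. COL1A2 passed as lower in CD44 KO, with means of 92.5 and 2.26 CPM (log2 fold change -5.32). LUM passed as higher, with means of 2.48 and 11.2 CPM (log2 fold change 2.17). PDGFRB did not pass and DCN was too weak to be tested. Of the endothelial markers, PECAM1 had means of 11.6 and 13.9 CPM in Hs578T and did not pass. In MDA-MB-231 none of the tested markers outside the line check passed the test. The part of these markers in the results below was not tested.

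In Hs578T cells, loss of CD44 went with higher transcripts of both chains of the cystine transporter, and the other 8 genes did not pass the test. In MDA-MB-231 cells, none of the 10 genes passed. A gene passed at an adjusted p of at most 0.01 in the quasi-likelihood test of edgeR, with p adjusted by Benjamini-Hochberg over all genes tested, the rule of the study's methods. In Hs578T that made 2 of 10 genes, both higher in CD44 KO, beside 7.51% of all genes tested. In MDA-MB-231 it made 0 of 10 beside 4.62% of all genes. An unadjusted p under 0.05 was held by 5 of the 10 in Hs578T, beside 27.4% of all genes, and by 3 of the 10 in MDA-MB-231, beside 23.4%. DESeq2 also passed 2 and 0 of them. In Hs578T the median change of the 10 genes was 0.15 on the log2 scale, beside -0.0016 over all genes tested, and in MDA-MB-231 it was -0.15 beside -0.0096.

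**Figure D1:**
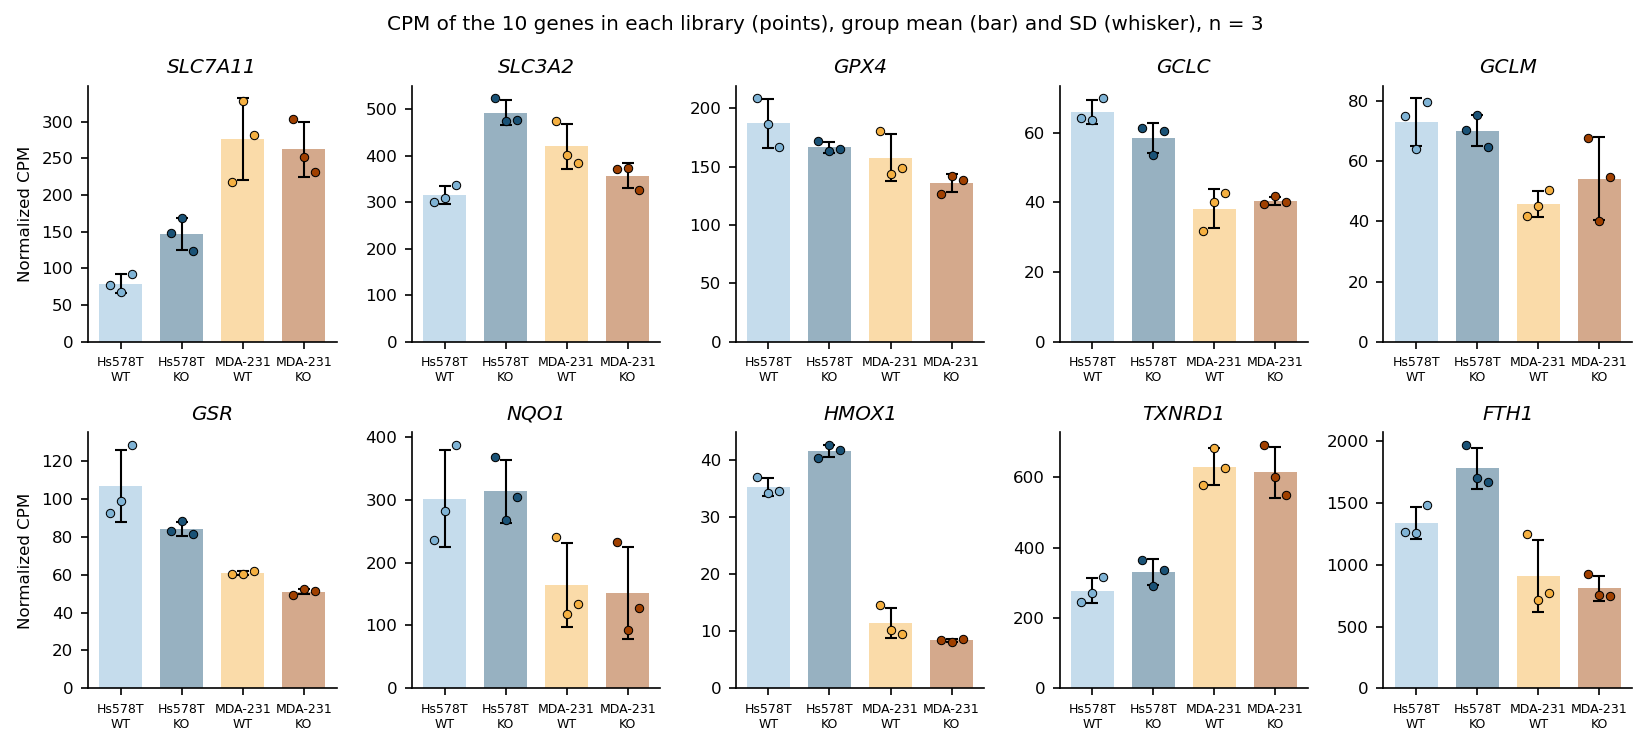
Normalized CPM of each of the 10 genes on a linear axis from 0, with 1 panel per gene and 4 groups per panel; bars are group means, whiskers the SD over 3 libraries and points the libraries. With CD44 KO, SLC7A11 rises from 79.0 to 147 CPM in Hs578T and has means of 276 and 262 CPM in MDA-MB-231; SLC3A2 rises from 315 to 492 CPM in Hs578T and has means of 420 and 357 CPM in MDA-MB-231.

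SLC7A11 (ENSG00000151012.13) spans bases 138164097 to 138242349 of chromosome 4 (GRCh38, minus strand). In Hs578T CD44 WT it stood at 76.8, 67.3 and 92.9 CPM in replicates 1, 2 and 3, and in CD44 KO at 148, 169 and 124 CPM. Every CD44 KO library thus lay above every CD44 WT library, and the fitted change was 1.86-fold, or 0.90 on the log2 scale (standard error 0.161, 95% interval 0.55 to 1.24, adjusted p = 0.00145). This call was close to the threshold: without CD44 WT replicate 1, CD44 WT replicate 2 or CD44 KO replicate 2 of Hs578T, the adjusted p was 0.0104, 0.0132 and 0.0117, with log2 fold changes of 0.87, 0.80 and 0.79. In MDA-MB-231 the gene started higher. CD44 WT held 218 CPM in replicate 1, 329 CPM in the library whose replicate number the labels leave unclear and 282 CPM in replicate 3, and CD44 KO held 304, 252 and 232 CPM. These groups overlapped throughout, with a log2 fold change of -0.07 (standard error 0.156, 95% interval -0.41 to 0.26, adjusted p = 0.840). The change in Hs578T less that in MDA-MB-231 was 0.97 on the log2 scale and did not pass (standard error 0.224, 95% interval 0.50 to 1.45, adjusted p = 0.0124). It passed without Hs578T CD44 WT replicate 3, MDA-MB-231 CD44 WT replicate 1 or MDA-MB-231 CD44 KO replicate 1, with differences of 1.10, 1.12 and 1.09 (adjusted p = 0.00635, 0.00234 and 0.00944). All fits of the change in each line and of their difference use the same libraries, so these values are not independent of each other.

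SLC3A2 (ENSG00000168003.16), on the plus strand of chromosome 11 from 62856102 to 62888875, also rose in Hs578T. Its CD44 WT libraries held 300, 309 and 336 CPM and its CD44 KO libraries 523, 475 and 477 CPM. The lowest CD44 KO library was far above the highest CD44 WT library, a change of 1.56-fold or 0.64 on the log2 scale (standard error 0.0951, 95% interval 0.44 to 0.85, adjusted p = 2.94e-04). In MDA-MB-231 the order was the opposite: 475, 401 and 384 CPM in CD44 WT against 371, 374 and 326 CPM in CD44 KO. The groups did not overlap, but the log2 fold change of -0.23 did not pass (standard error 0.0948, adjusted p = 0.148). The difference between the lines was 0.88 on the log2 scale (standard error 0.134, 95% interval 0.59 to 1.16, adjusted p = 7.02e-04). SLC3A2 was the only gene of the 10 whose difference between the lines passed, beside 4.12% of all genes tested.

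**Figure D2:**
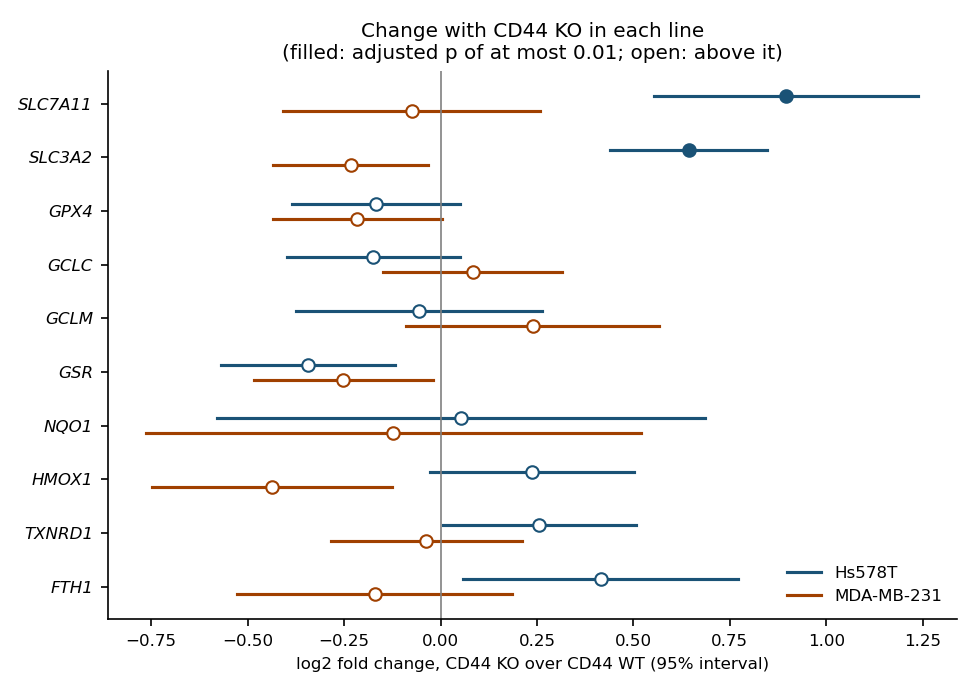
Change with CD44 KO of each of the 10 genes on the log2 scale, in Hs578T (blue) and MDA-MB-231 (brown), with 95% intervals as lines; filled points passed an adjusted p of at most 0.01 and open points did not. Only SLC7A11 and SLC3A2 in Hs578T are filled, at 0.90 and 0.64.

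The genes of glutathione synthesis GCLC, GCLM and GSS did not pass in either line. GCLC (chr6:53497341-53616970, minus strand), the catalytic subunit of glutamate-cysteine ligase, which makes the first step of glutathione, held 64.4, 63.6 and 69.9 CPM in Hs578T CD44 WT and 61.3, 53.6 and 60.5 CPM in CD44 KO. Every CD44 KO library was below every CD44 WT library, by a log2 fold change of -0.17 that did not pass (95% interval -0.40 to 0.05, adjusted p = 0.314). In MDA-MB-231 the groups overlapped, at 31.9 to 42.7 CPM in CD44 WT and 39.6 to 41.8 CPM in CD44 KO. GCLM (chr1:93885205-93909456, minus strand), the modifier subunit that makes the ligase more efficient, held 75.0, 64.1 and 79.7 CPM in Hs578T CD44 WT and 70.4, 75.2 and 64.8 CPM in CD44 KO. Its groups overlapped in both lines, and its 95% interval in Hs578T ran from -0.38 to 0.26 on the log2 scale. In MDA-MB-231, CD44 KO replicate 1 stood at 67.8 CPM, above the other 5 libraries of the line, which ran from 40.1 to 54.9 CPM. GSS, which completes glutathione, held 102, 115 and 130 CPM in Hs578T CD44 WT and 145, 133 and 136 CPM in CD44 KO. Its CD44 KO libraries lay above its CD44 WT libraries, with a log2 fold change of 0.25 (95% interval 0.01 to 0.49, adjusted p = 0.167).

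GPX4 and GSR had lower means in CD44 KO of both lines without passing the test. GPX4 (chr19:1103926-1106791, plus strand), the selenoenzyme that reduces lipid peroxides, held 209, 186 and 167 CPM in Hs578T CD44 WT and 172, 163 and 165 CPM in CD44 KO. Those groups overlapped, with a 95% interval of -0.39 to 0.05 on the log2 scale. In MDA-MB-231 it held 181, 144 and 149 CPM in CD44 WT and 127, 142 and 139 CPM in CD44 KO, all below the CD44 WT libraries, with a log2 fold change of -0.22 (adjusted p = 0.221). GSR, glutathione reductase, which returns oxidized glutathione to its reduced form, was lower in every CD44 KO library of both lines. It held 92.9, 98.9 and 129 CPM in Hs578T CD44 WT and 82.9, 88.2 and 81.3 CPM in CD44 KO, a log2 fold change of -0.34 that did not pass (adjusted p = 0.0419, standard error 0.106). In MDA-MB-231 it held 60.3, 60.3 and 62.0 CPM in CD44 WT and 49.4, 52.3 and 51.6 CPM in CD44 KO, a log2 fold change of -0.25 (adjusted p = 0.175, standard error 0.109). GSR was thus the gene of the 10 with the same order in both lines and no overlap in either, and neither change passed.

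The classical NRF2 targets NQO1 and TXNRD1 did not pass in either line. NQO1 (chr16:69706996-69726951, minus strand), a quinone reductase, held 236, 282 and 388 CPM in Hs578T CD44 WT and 368, 268 and 304 CPM in CD44 KO. In MDA-MB-231 it held 241, 118 and 134 CPM in CD44 WT and 233, 92.9 and 128 CPM in CD44 KO. In both lines the groups overlapped, and libraries of 1 group spread so widely that the standard errors were 0.297 and 0.301 on the log2 scale. TXNRD1 (chr12:104215779-104350305, plus strand), the thioredoxin reductase of the cytosol, held 245, 271 and 315 CPM in Hs578T CD44 WT and 365, 290 and 338 CPM in CD44 KO. Its log2 fold change of 0.26 did not pass (standard error 0.117, adjusted p = 0.171), and in MDA-MB-231 its groups overlapped between 550 and 693 CPM.

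HMOX1 (chr22:35380361-35394214, plus strand), the heme oxygenase that frees iron from heme, had opposite orders in the lines. In Hs578T it held 37.0, 34.2 and 34.4 CPM in CD44 WT and 40.4, 42.5 and 41.6 CPM in CD44 KO. In MDA-MB-231 it held 14.5, 10.2 and 9.49 CPM in CD44 WT and 8.47, 8.16 and 8.69 CPM in CD44 KO. Neither pair of groups overlapped, and neither log2 fold change, 0.24 in Hs578T and -0.44 in MDA-MB-231, passed (adjusted p = 0.238 and 0.0775). Their difference of 0.67 had a 95% interval of 0.27 to 1.08 and also did not pass (adjusted p = 0.0364). FTH1 (chr11:61959718-61967660, minus strand), the ferritin heavy chain that stores iron in a safe form, held 1268, 1257 and 1485 CPM in Hs578T CD44 WT and 1974, 1704 and 1670 CPM in CD44 KO. All CD44 KO libraries were above all CD44 WT libraries, with a log2 fold change of 0.42 that did not pass (standard error 0.167, adjusted p = 0.117). Without MDA-MB-231 CD44 WT replicate 1, whose spread enters the same fit, the adjusted p of FTH1 in Hs578T was 0.00841 at a log2 fold change of 0.42. In MDA-MB-231 that library held 1249 CPM of FTH1, against 712 and 774 CPM in the other CD44 WT libraries and 925, 756 and 750 CPM in CD44 KO. FTH1 has many processed pseudogenes, and fragments that fit several places were not counted, so its level is uncertain.

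Counted by order alone, 4 of the 10 genes in Hs578T had every CD44 KO library above every CD44 WT library (SLC7A11, SLC3A2, HMOX1 and FTH1), as did 18.7% of all genes tested, and 2 had every CD44 KO library below (GCLC and GSR), as did 18.6%. In MDA-MB-231, 0 of 10 lay above, beside 11.8%, and 4 lay below (SLC3A2, GPX4, GSR and HMOX1), beside 13.7%. In either direction that made 6 of 10 in Hs578T beside 37.3% of all genes and 4 of 10 in MDA-MB-231 beside 25.5%. The MDA-MB-231 CD44 WT replicate 1 library was the highest of its group for SLC3A2, GPX4, NQO1, HMOX1 and FTH1. Without it the log2 fold changes there were -0.14 for SLC3A2, -0.11 for GPX4, 0.26 for NQO1, -0.23 for HMOX1 and 0.12 for FTH1. Still 0 of 10 genes passed. CD44 KO replicate 1 of that line, also the highest of its group for NQO1 and FTH1, stayed in this fit, which bears on the positive signs.

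Before any loss of CD44 the lines differed in most of the 10 genes. Between CD44 WT libraries, 8 of 10 passed, beside 61.5% of all genes tested, so a share this high was common in this comparison, which uses the same CD44 WT libraries as those above. Of the 10 genes, 3 were higher in MDA-MB-231: Hs578T minus MDA-MB-231 was -1.81 for SLC7A11 (standard error 0.163, adjusted p = 8.74e-08), -0.41 for SLC3A2 and -1.19 for TXNRD1 on the log2 scale. A further 5 were higher in Hs578T: 0.79 for GCLC, 0.67 for GCLM, 0.81 for GSR, 0.55 for FTH1 and 1.63 for HMOX1 (standard error 0.135, adjusted p = 3.57e-08). GSS, outside the 10, was lower in Hs578T by a log2 difference of -0.82 (adjusted p = 1.05e-05). GPX4, at 0.25, and NQO1, at 0.88, did not pass (adjusted p = 0.0416 and 0.0165). Both passed without MDA-MB-231 CD44 WT replicate 1 (adjusted p = 0.00247 and 0.00170), and NQO1 also without CD44 KO replicate 1 or 2 of that line (adjusted p = 0.00457 and 0.00891). The call for FTH1 (adjusted p = 0.00800) was lost when any 1 of 7 libraries was left out, with adjusted p up to 0.0457; these were the 3 CD44 WT libraries and CD44 KO replicate 2 of Hs578T, and in MDA-MB-231 CD44 WT replicate 3, the CD44 WT library with no number and CD44 KO replicate 2. For SLC7A11, the CD44 KO libraries of Hs578T, at 124 to 169 CPM, stayed below the lowest MDA-MB-231 library of either group, at 218 CPM.

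**Figure D3:**
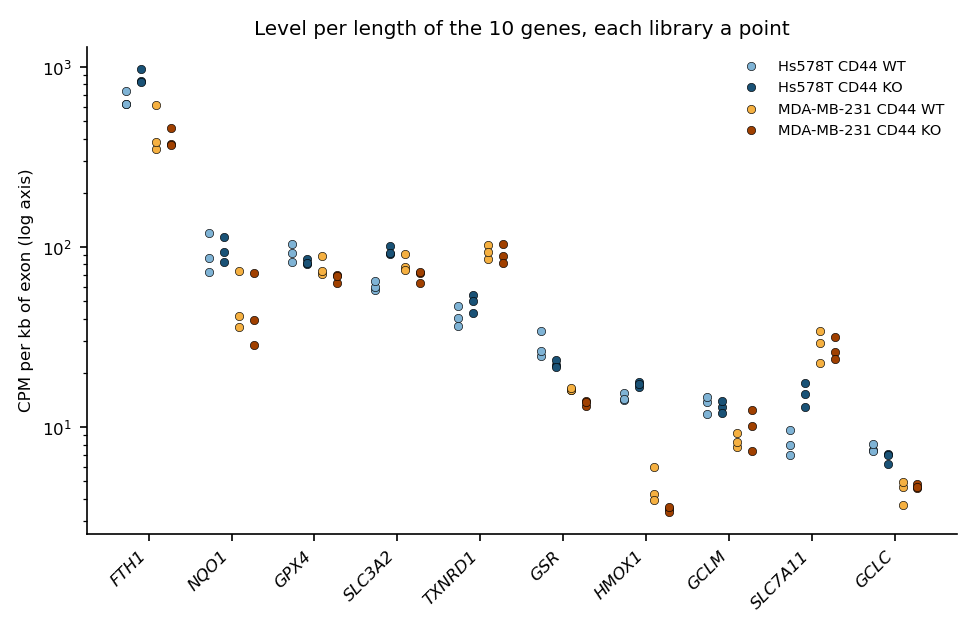
Level of each gene in CPM per kb of exon on a log axis, with 1 point per library and 4 colours for the groups, genes ordered by their mean in Hs578T CD44 WT. FTH1 is highest in every group, SLC7A11 climbs from 8.19 to 15.2 CPM per kb with CD44 KO in Hs578T, and in MDA-MB-231 it is at 28.7 and 27.2 CPM per kb.

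Levels of different genes can be compared only per length. The length used was that of all annotated exons of a gene. It can exceed that of the transcript expressed, so the order below is approximate. In CPM per kb of exon, FTH1 was the most abundant in every group, from 399 ± 49.1 in MDA-MB-231 CD44 KO to 878 ± 82.1 in Hs578T CD44 KO. In Hs578T CD44 WT it was followed by NQO1 at 92.8, GPX4 at 92.7, SLC3A2 at 60.8, TXNRD1 at 41.3, GSR at 28.4, HMOX1 at 14.6, GCLM at 13.5, SLC7A11 at 8.19 and GCLC at 7.63 CPM per kb. The libraries of NQO1 and GPX4 overlapped, as did those of HMOX1 and GCLM and those of SLC7A11 and GCLC, while the other neighbours in this order did not. With CD44 KO in Hs578T, SLC3A2 reached 91.8 to 101 CPM per kb, overlapping NQO1 at a mean of 96.3 and above all libraries of GPX4, at a mean of 82.6. In MDA-MB-231 CD44 WT the order after FTH1 was TXNRD1 at 93.9, SLC3A2 at 81.1, GPX4 at 78.1, NQO1 at 50.5, SLC7A11 at 28.7, GSR at 16.2, GCLM at 8.44, HMOX1 at 4.74 and GCLC at 4.42 CPM per kb. There TXNRD1, SLC3A2 and GPX4 each overlapped the next in the order, and HMOX1 overlapped GCLC. The heavy chain SLC3A2 was more abundant per length than the light chain SLC7A11 in every group, with library ranges that did not overlap.

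The genes whose pattern over the 12 libraries was most like SLC7A11 were MET, PRRG1, GBE1, ELL2 and CAV1. Likeness was the root mean square difference of log2 CPM, each gene less its own mean, and these 5 had the smallest values of 11226 genes, from 0.18 for MET to 0.24 for CAV1. MET, the receptor for hepatocyte growth factor, had means of 99.2 and 155 CPM in Hs578T CD44 WT and CD44 KO and of 277 and 267 CPM in MDA-MB-231. Among the other 9 genes TXNRD1 came closest, at place 59, and SLC3A2 was at place 4260. This is a description over libraries of 2 lines and 2 genotypes, which set most of the pattern.

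NRF2 acts through the antioxidant response element, so the RefSeq promoters (GRCh38.p14) were searched for its core, TGACNNNGC, on both strands. The windows hold 250 bases before each start and the first 50 after it, and 6 of the 10 genes matched an entry. SLC7A11, GSR, HMOX1 and FTH1 had no entry and were not searched. The core was in the window of 1 of the 3 starts of SLC3A2, of the only start of GCLM and of both starts of TXNRD1. It was in 13.3% of all 35116 promoter windows. That is a share of single windows, and a gene with more starts has more chances of a match. No match to these letters was in the windows of GPX4, GCLC and NQO1. An element further upstream would lie outside the windows, so this does not show that these genes lack one. The 130 bases before the start are shown for SLC3A2, which rose in Hs578T, and for GCLM and TXNRD1, which carry the same core and did not pass. The core is in capitals, read 5′ to 3′ on the strand of the gene.
SLC3A2, chr11:62881569-62881698, plus strand, at the only 1 of its 3 starts with a match: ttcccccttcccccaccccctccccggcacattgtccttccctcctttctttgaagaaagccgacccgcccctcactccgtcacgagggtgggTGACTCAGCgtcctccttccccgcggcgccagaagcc
GCLM, chr1:93909431-93909560, minus strand: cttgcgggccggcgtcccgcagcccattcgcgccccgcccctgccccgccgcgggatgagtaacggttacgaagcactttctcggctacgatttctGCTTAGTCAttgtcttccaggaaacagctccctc
TXNRD1, chr12:104215649-104215778, plus strand, at the upstream of its 2 starts: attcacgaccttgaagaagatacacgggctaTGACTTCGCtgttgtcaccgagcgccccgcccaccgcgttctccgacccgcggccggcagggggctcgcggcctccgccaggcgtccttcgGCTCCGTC
The match of SLC3A2 begins 37 bases before the start and that of GCLM, on the opposite strand, 34 bases before it. TXNRD1 has a match 99 bases before its start and another on the opposite strand that begins 8 bases before the start and runs across it, of which the first 8 letters are shown. At its downstream start, TXNRD1 has a further match on the opposite strand 102 bases before the start, not printed here. A match is a stretch of letters and says nothing of whether NRF2 was bound there.

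Around the 10 genes, 177 genes of 12 lists on the same pathways were followed, and 163 were tested. In Hs578T, 19 passed, 9 higher and 10 lower in CD44 KO, which is 11.7% beside 7.51% of all genes tested. In MDA-MB-231, 7 passed, 1 higher and 6 lower, which is 4.29% beside 4.62%. These shares of all genes are the background for the count of each list, in which 1 gene is a large share. Over the 163 genes the median log2 fold change was 0.02 for Hs578T and -0.05 for MDA-MB-231. None of the 163 passed in both lines.

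**Figure D4:**
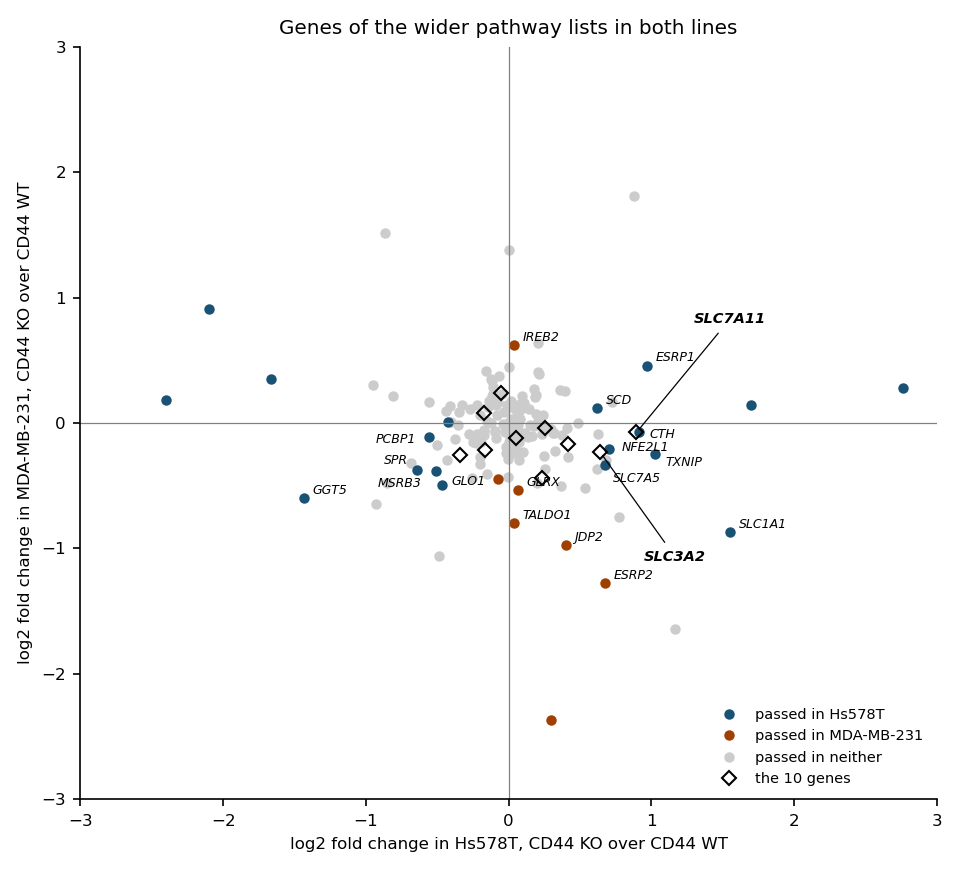
Log2 fold change with CD44 KO in Hs578T (horizontal axis) and MDA-MB-231 (vertical axis) for the 163 tested genes of the 12 lists; blue points passed in Hs578T, brown points in MDA-MB-231, grey points in neither, and open diamonds are the 10 genes. SLC7A11 and SLC3A2 lie to the right among SLC7A5, NFE2L1 and CTH, and 2 genes, GSTM3 and SELENOP, lie outside the axes.

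Of the 8 tested transporters that share substrates or the heavy chain with SLC7A11, 2 were higher and 1 lower in Hs578T, beside 7.51% of all genes called, and 0 passed in MDA-MB-231, beside 4.62%. SLC7A5, which shares the heavy chain SLC3A2 to import leucine and other large neutral amino acids, held 763, 699 and 787 CPM in CD44 WT and 1289, 1145 and 1152 CPM in CD44 KO, a rise of 0.67 on the log2 scale (standard error 0.101, adjusted p = 3.26e-04). SLC1A1, a glutamate and cysteine importer, was far weaker but rose from 3.12 ± 0.248 to 9.20 ± 0.921 CPM, a rise of 1.55 on the log2 scale (standard error 0.187, adjusted p = 5.09e-05). SLC7A7, another partner of SLC3A2, was lower, with means of 6.79 ± 1.78 and 2.15 ± 0.371 CPM, and was named after its values were seen. Over the 8, 4 changes were positive and 4 negative. In MDA-MB-231 SLC7A5 held 714, 754 and 731 CPM in CD44 WT and 639, 618 and 484 CPM in CD44 KO, without passing (log2 fold change -0.34, adjusted p = 0.0469).

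In cysteine and glutathione metabolism, 2 of 15 tested genes passed in Hs578T (beside 7.51%), 1 in each direction, and 0 in MDA-MB-231 (beside 4.62%). CTH, cystathionine gamma-lyase, which makes cysteine from methionine, was at 25.1, 24.5 and 23.3 CPM in CD44 WT and 47.1, 51.2 and 39.1 CPM in CD44 KO of Hs578T. Its log2 fold change was 0.91 (adjusted p = 0.00717). GGT5, a gamma-glutamyl transferase, was lower in CD44 KO, with means of 9.82 ± 1.54 and 3.61 ± 0.487 CPM. CHAC1, which breaks glutathione down and is a well known target of ATF4, had a mean of 40.2 ± 4.21 CPM in CD44 WT and 68.8 ± 9.27 CPM in CD44 KO of Hs578T, and 33.5 ± 11.8 and 19.5 ± 9.09 CPM in MDA-MB-231. Neither change passed (adjusted p = 0.0515 and 0.0951), but the call changed with the setting. Without MDA-MB-231 CD44 KO replicate 2, CHAC1 passed as lower in MDA-MB-231 (log2 fold change -1.23, adjusted p = 0.00607). With Hs578T fitted alone in edgeR, CHAC1 passed as higher there (log2 fold change 0.77, adjusted p = 8.62e-04). It passed in both lines, higher in Hs578T and lower in MDA-MB-231, without the filter on low counts or with the replicate blocks described below. ATF4 itself, the factor that answers amino acid shortage and drives SLC7A11, had means of 354 ± 33.0 and 442 ± 48.7 CPM in Hs578T and also did not pass (log2 fold change 0.32, adjusted p = 0.0943). JDP2, a repressor of the same bZIP family, fell in MDA-MB-231 by 0.97 on the log2 scale, with 13.7, 15.1 and 10.3 CPM in CD44 WT and 5.68, 8.79 and 4.84 CPM in CD44 KO (adjusted p = 0.00467), and was the 1 of 7 listed regulators of SLC7A11 that passed in either line.

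In the thioredoxin system, 3 of 15 tested genes passed in Hs578T, 1 higher and 2 lower, beside 7.51% of all genes, and 0 in MDA-MB-231. TXNIP, the inhibitor of thioredoxin, was at 38.6, 76.2 and 47.7 CPM in CD44 WT and 74.0, 137 and 119 CPM in CD44 KO, so that 1 library of each group overlapped (log2 fold change 1.03, adjusted p = 0.00685). MSRB3, a methionine sulfoxide reductase, was lower by a log2 fold change of -0.51. TXN, thioredoxin itself, did not pass in either line. NFE2L2, which encodes NRF2, held 139 ± 5.37 and 145 ± 9.20 CPM in Hs578T and 106 ± 9.36 and 110 ± 12.8 CPM in MDA-MB-231 and did not pass in either. KEAP1, the adaptor that sends NRF2 to degradation, did not pass either (log2 fold change -0.28 in Hs578T and -0.09 in MDA-MB-231). NFE2L1, a relative of NRF2 known for proteasome genes, was the 1 of 14 genes of NRF2 regulation that passed, at 543, 587 and 570 CPM in CD44 WT and 947, 949 and 876 CPM in CD44 KO of Hs578T (log2 fold change 0.71, standard error 0.0781, adjusted p = 2.24e-05). Of 22 other NRF2 targets, 1 was higher and 1 lower in Hs578T and 2 were lower in MDA-MB-231. Those were TALDO1, a pentose phosphate enzyme, at 259 ± 71.0 and 149 ± 18.2 CPM, and AKR1C1, at 1.71 ± 0.721 and 0.373 ± 0.361 CPM, which was named after its values were seen and shares much of its sequence with its family.

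Of 21 tested genes that use glutathione, 2 passed, both lower in MDA-MB-231 (beside 4.62% of all genes), and 0 in Hs578T (beside 7.51%). They were GLRX, glutaredoxin, at 106 ± 11.5 and 73.2 ± 8.44 CPM, and GLO1, glyoxalase, at 518 ± 31.6 and 381 ± 19.5 CPM. GPX1, a peroxidase for hydrogen peroxide, had means of 62.6 ± 5.20 and 62.5 ± 6.44 CPM in Hs578T and did not pass in either line. Of 17 tested genes of iron and heme, 2 passed in Hs578T, 1 in each direction, and 1 in MDA-MB-231. PCBP1, an iron chaperone that loads ferritin, was lower in Hs578T, with 335, 308 and 324 CPM in CD44 WT and 229, 201 and 228 CPM in CD44 KO, and SLC39A8, a metal importer named after its values were seen, was higher, with 0.939 ± 0.453 and 6.29 ± 0.110 CPM. IREB2, an iron sensor, was higher in MDA-MB-231, with 71.5 ± 17.3 and 110 ± 4.42 CPM. FTL, the ferritin light chain, and TFRC, the transferrin receptor, did not pass in either line.

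The ferroptosis defences beside GPX4 gave 3 of 18 tested genes in Hs578T, 1 higher and 2 lower, and 0 in MDA-MB-231. For this and the next 3 lists the shares of all genes are again 7.51% and 4.62%. SCD, which makes monounsaturated fatty acids, was higher, with 4495 ± 158 and 6911 ± 1278 CPM. SPR, an enzyme of tetrahydrobiopterin synthesis, was lower, with 50.7 ± 5.84 and 32.5 ± 4.67 CPM. AIFM2, also known as FSP1, which keeps coenzyme Q reduced, did not pass in either line and differed little, with group means from 37.8 to 40.7 CPM. ACSL4, which builds the lipids that oxidize in ferroptosis, did not pass in either line, and of 10 tested ferroptosis drivers 1 was lower in Hs578T and 0 passed in MDA-MB-231. The 10 genes of selenoprotein synthesis, on which GPX4 and TXNRD1 depend, gave the same counts. Of 6 tested regulators of CD44 variant splicing, 1 passed in each line: ESRP1 was higher in Hs578T, with 4.64 ± 0.483 and 9.09 ± 1.81 CPM, and ESRP2 lower in MDA-MB-231, with 20.6 ± 3.52 and 8.52 ± 0.641 CPM.

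Several of these calls were lost when a single library was left out. Leaving out 1 of the 12 libraries at a time ended calls in Hs578T with adjusted p up to 0.0473. It did so for CTH without any Hs578T library or MDA-MB-231 CD44 WT replicate 3, and for ESRP1 and SPR without any Hs578T CD44 WT library or Hs578T CD44 KO replicate 2 or 3. The SCD call was lost without any Hs578T CD44 WT library or Hs578T CD44 KO replicate 1 or 2. The TXNIP call was lost without replicate 1 or 3 of CD44 WT or 2 or 3 of CD44 KO in Hs578T, or without CD44 WT replicate 3 or CD44 KO replicate 2 of MDA-MB-231. The MSRB3 call was lost without any of 8 libraries, all except Hs578T CD44 WT replicate 3 and, in MDA-MB-231, CD44 WT replicate 1, the CD44 WT library with no number and CD44 KO replicate 1. In MDA-MB-231 lost calls had adjusted p up to 0.0392. TALDO1 lost its call without CD44 KO replicate 2 or 3, GLO1 without CD44 KO replicate 1 or 3, and JDP2 without CD44 KO replicate 1 or 3, CD44 WT replicate 1 or the CD44 WT library with no number. IREB2 kept its call only without Hs578T CD44 WT replicate 3, MDA-MB-231 CD44 WT replicate 1 or the CD44 WT library with no number, and GLRX only without Hs578T CD44 WT replicate 1 or 3 or MDA-MB-231 CD44 WT replicate 3. The calls for SLC3A2, SLC7A5, SLC1A1, GGT5, NFE2L1 and PCBP1 in Hs578T and for ESRP2 in MDA-MB-231 passed in all 12 cases.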

How the data were processed

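RNA of 12 libraries, 3 in each of 4 groups, was sequenced after poly(A) selection and stranded paired-end library preparation. The deposited table holds raw counts per gene, which the authors made with HISAT2 2.1.0 and featureCounts 1.6.2 on GRCh38 with GENCODE 28, without normalization; fragments that fit several places were not counted. Symbols were given to 57754 of 58381 genes. The groups came from the sample labels.

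Genes with over 1 CPM in at least 2 libraries and at least 300 nt of exon were kept. The methods word the length rule the other way, which was read as a slip. Counts were fitted in edgeR 4.0.16 (R 4.3.3) with TMM factors, a mean per group and the quasi-likelihood test, with Benjamini-Hochberg adjustment and an adjusted p of at most 0.01. CPM per kb divide by exonic length. DESeq2 1.42.0 was an alternative, beside other scaling factors, no filter on low counts, each line alone, other thresholds, replicate blocks and each library left out. The code was tested on simulated data for Hs578T. There 53.5% of changes of 1 on the log2 scale and 85.1% of changes of 2 were recovered. A change that did not pass is thus not shown to be absent. Total counts per library ran from 10257586 to 19725543, and intervals cover the spread between libraries.

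The 10 genes, the lists around them and the alternatives were chosen with earlier results of these data known. Beside the 10 genes, the text names 13 chosen genes of the lists, up to 10 of the largest calls in each line among genes with a mean of at least 5 CPM, and others are said to be named after their values were seen. Marker genes and the 5 genes nearest SLC7A11 were named as such. Figures were drawn with matplotlib 3.10.9.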

Additional observations from a re-analysis of the deposited data

Results flagged for a closer look

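For 5 genes the change with CD44 KO in Hs578T differed from that in MDA-MB-231 by a test of the difference itself. This test used edgeR's quasi-likelihood fit of all 12 libraries with Benjamini-Hochberg adjustment. In it 1 of the 10 genes passed and 6 of the 163 genes of the lists (3.68%), beside 4.12% of all genes tested. SLC3A2 had a difference of 0.88 on the log2 scale (standard error 0.134, adjusted p = 7.02e-04), from 0.64 in Hs578T and -0.23 in MDA-MB-231. SLC7A5, its partner in leucine import, had a difference of 1.01 (standard error 0.142, adjusted p = 3.35e-04). SLC1A1 had a difference of 2.42 (standard error 0.299, adjusted p = 1.03e-04) at group means of 1.44 to 9.20 CPM. NFE2L1 had a difference of 0.91 (standard error 0.110, adjusted p = 8.64e-05). In all 4 genes the CD44 KO libraries lay above the CD44 WT libraries in Hs578T and below them in MDA-MB-231.

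JDP2 had a difference of 1.38 (standard error 0.259, adjusted p = 0.00341), with the same opposite orders, and lost this call without replicate 1 or 2 of CD44 WT or 2 or 3 of CD44 KO in Hs578T or without CD44 KO replicate 1 of MDA-MB-231 (adjusted p up to 0.0121). The markers of other cell types that differed between groups of Hs578T were given with the report, and their part in these differences was not tested.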

How the results depend on the processing

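Of 11 calls among the 10 genes, 188 of 200 values under the alternatives kept direction and call, 12 kept the direction alone and 0 reversed. With 3 libraries a group, the precision was limited by the spread between libraries. Of the 10 genes, 2 passed in Hs578T, 0 in MDA-MB-231, 1 in the difference between the lines and 8 between the CD44 WT lines. Requiring a log2 fold change of at least 1 left 0, 0, 0 and 3. The difference passed for 2 with DESeq2, 3 without the filter on low counts and 3 at an adjusted p of at most 0.05. Scaling by library size alone made GPX4 and NQO1 pass between the lines. With 1 library left out the counts ran from 1 to 3, 0 to 0, 1 to 2 and 7 to 10. In Hs578T 1 remained without CD44 WT replicate 1, CD44 WT replicate 2 or CD44 KO replicate 2, where SLC7A11 was lost. The difference passed for 2 without Hs578T CD44 WT replicate 3, MDA-MB-231 CD44 WT replicate 1 or MDA-MB-231 CD44 KO replicate 1. FTH1 also passed in Hs578T without the filter on low counts and with each line alone (adjusted p = 1.7e-04 and 0.00792). Except where the construction shows it, the cause was not tested.

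Of the 163 genes of the lists, 19 passed in Hs578T, 7 in MDA-MB-231 and 6 in the difference. Without the filter on low counts, these were 31, 15 and 26. A log2 fold change of at least 1 left 9 in Hs578T and 2 in MDA-MB-231. DESeq2 gave 14 in MDA-MB-231 and 16 in the difference, an adjusted p of at most 0.05 gave 17 and 25, and each line alone gave 1 in MDA-MB-231. With 1 library left out the counts ran from 9 to 23, 2 to 8 and 5 to 13. In Hs578T they were lowest without CD44 WT replicate 1 or CD44 KO replicate 2 (9), CD44 WT replicate 2 (10) and CD44 KO replicate 3 (11). In MDA-MB-231 they were lowest without CD44 KO replicate 1 or 3 (2), and 4 without CD44 KO replicate 2 or, in Hs578T, CD44 WT replicate 2 or any CD44 KO library. The difference reached 13 without MDA-MB-231 CD44 WT replicate 1.

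The replicate numbers did not pair the libraries of Hs578T. In MDA-MB-231 they gave the same pairs as the numbers in the libraries' second names. The main fit used no pairing. The correlation of deviations between CD44 WT and CD44 KO libraries of the same number ran from -0.10 to 0.16, and 0 of 6 Hs578T and 4 of 6 MDA-MB-231 libraries correlated best with their own number. By the number in the libraries' second names it ran from 0.01 to 0.16, with 6 of 6 and 4 of 6. With the replicate block, the 10 genes gave 2, 0, 1 and 6 calls and the lists 11 in the difference. With the block by label number, the lists gave 12 in the difference. CHAC1 passed in both lines with either block, at 0.77 in Hs578T and -0.81 in MDA-MB-231 (adjusted p from 6.5e-04 to 0.00175), and NQO1 passed between the lines with the block by label number. Calls were lost with the replicate block for GCLM and FTH1 between the lines and for ESRP1 and MSRB3 in Hs578T, and with either block for IREB2 and GLRX in MDA-MB-231. The blocks changed no other call of a named gene.

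Signs reversed only for changes that had not passed. With 1 library left out, log2 fold changes in MDA-MB-231 ran from -0.22 to 0.068 for SLC7A11, -0.032 to 0.17 for GCLC, -0.58 to 0.26 for NQO1, -0.13 to 0.050 for TXNRD1, -0.32 to 0.12 for FTH1, -0.060 to 0.084 for GPX1, -0.049 to 0.11 for NFE2L2, -0.18 to 0.0026 for KEAP1, -0.37 to 0.30 for FTL and -0.40 to 0.17 for CTH. In Hs578T they ran from -0.14 to 0.012 for GCLM, -0.10 to 0.27 for NQO1, -0.079 to 0.078 for GPX1, -0.11 to 0.031 for AIFM2, -0.021 to 0.094 for TALDO1 and -0.030 to 0.16 for GLRX. The difference ran from -0.058 to 0.13 for GPX4, -0.18 to 0.064 for GSR and -0.20 to 0.63 for NQO1. GPX1 in Hs578T was 0.00328 with DESeq2, 0.00343 with RLE factors and 0.0122 without the filter on low counts, and in MDA-MB-231 -9.58e-04 with the replicate block and -9.08e-04 with the block by label number.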

Other observations

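The libraries' second names carry numbers from 1 to 12, and each of the 4 groups holds 1 number from 1 to 4, 1 from 5 to 8 and 1 from 9 to 12. The labels do not say what the number marks. NQO1 and FTH1 were highest in the library numbered 9 to 12 in all 4 groups, as were 4.55% of all genes tested. For the library numbered 1 to 4 this share was 2.90%, and for that numbered 5 to 8 it was 1.64%. The main fit did not include these sets. Compared within each set of numbers, the log2 ratio of CD44 KO to CD44 WT in Hs578T was 1.13, 0.89 and 0.67 for SLC7A11, 0.66, 0.63 and 0.64 for SLC3A2 and 0.43, 0.41 and 0.41 for FTH1. In MDA-MB-231 it was -0.39, -0.28 and 0.48 for SLC7A11, -0.34, -0.07 and -0.05 for NQO1 and 0.09, -0.05 and -0.43 for FTH1.

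Among the 163 genes of the lists, GSTZ1 and SLC39A8 also differed between the lines in their change with CD44 KO, and both were named after their values were seen. GSTZ1, a glutathione transferase of tyrosine breakdown, had means of 18.2 ± 1.45 and 26.4 ± 3.53 CPM in Hs578T and 43.2 ± 6.64 and 30.1 ± 2.47 CPM in MDA-MB-231, and its difference was 1.05 on the log2 scale (adjusted p = 0.00252). SLC39A8 had a difference of 2.49 (adjusted p = 4.91e-05).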
